A study of Mus musculus with 3 samples.

Results

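The genes described here encode the replication-dependent core histones and the linker histones of the mouse, measured in bone marrow stromal cultures before and during osteogenic induction. They were chosen by name: every non-control probe whose transcript accession led to a gene with a current or an older histone symbol of these families was a member. That gave 56 probes for 52 of the 20279 genes with a named probe; 49 genes matched by their current symbol and 3 by the older one only (H2aw, H2bu2 and H4f16). The members fall into 10 H1, 14 H2A, 11 H2B, 8 H3 and 9 H4 genes, and 5 of them are known as germline forms. A further 24 genes of these families in the RefSeq gene table had no probe matched by accession and were not analysed here.

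Cells were primary mesenchymal stem cells (MSCs) from the bone marrow of male mice aged 8 weeks; the labels give no strain or genotype, and do not say whether animals were pooled. All groups grew in αMEM with 10% serum. The day 0 group (titled MSC) was taken before induction, and the groups titled osteoblast were taken after 3 or 21 days with β-glycerophosphate (10 mM) and ascorbic acid (50 μg/mL), agents that serve mineral formation and collagen maturation. Each of the 3 groups was 1 Cy3-labelled array, so no difference has a replicate check, no p-value is given, and all comparisons are between single arrays.

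In the nucleosome, DNA is wrapped around H2A, H2B, H3 and H4, and H1 binds the linker DNA where it enters and leaves. Most of these proteins come from intronless genes in a few clusters, are made mainly in S phase when new DNA must be packaged, and have mRNAs that end in a stem-loop in place of a poly(A) tail. Some copies can also give polyadenylated mRNA, and H1f0 and H1f10 are expressed outside S phase with poly(A) tails. The labels name the labelling kit but not the primer, so which of these mRNA forms the arrays read is not given in the sources used here.

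Signal is given in multiples of the 75th percentile of all spots on an array, controls left out, and a log2 difference is the later day minus the earlier day on that scale. A gene counted as measured when its probe was marked well above background on both arrays, and as called when it differed by at least 2-fold. Probes spotted 10 times on each array gave a technical SD of 0.10 for a log2 difference of a probe above the 75th percentile and 0.27 below it; both cover the array alone. Of the 52 member genes, 43 were above background on all 3 arrays, 4 on the day 0 array and not on the day 21 array (H2ac8, H2bc3, H3c1 and H3c11), and 5 on none (H1f3, H1f7, H2ac21, H2bc23 and H2bu2). At day 0, 47 of 52 members were above background, against 45 at day 3 and 43 at day 21, while the named genes as a whole went from 63.8% to 64.7% and 66.2%.

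At day 21 against day 0, 33 of the measured members lay below 0 and 10 above it. Of all named genes measured, 7501 lay below 0 and 4886 above it. Of 43 measured members, 17 were at least 2-fold lower than at day 0, which is 39.5%, against 16.8% of all 12387 named genes measured on these arrays. Only 1 member, H3c15, was at least 2-fold higher, against 12.8% of all named genes. The members' median difference was -0.84 and that of all named genes -0.21. The range ran from -4.12 for H2ac4 to 1.05 for H3c15. Another 4 members were at least 2-fold lower by a bound, with 0 higher by a bound; counted that way, 17.7% of all named genes were lower and 15.4% higher. In bulk RNA fewer cells of a type and less RNA per cell cannot be told apart.

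**Figure D1:**
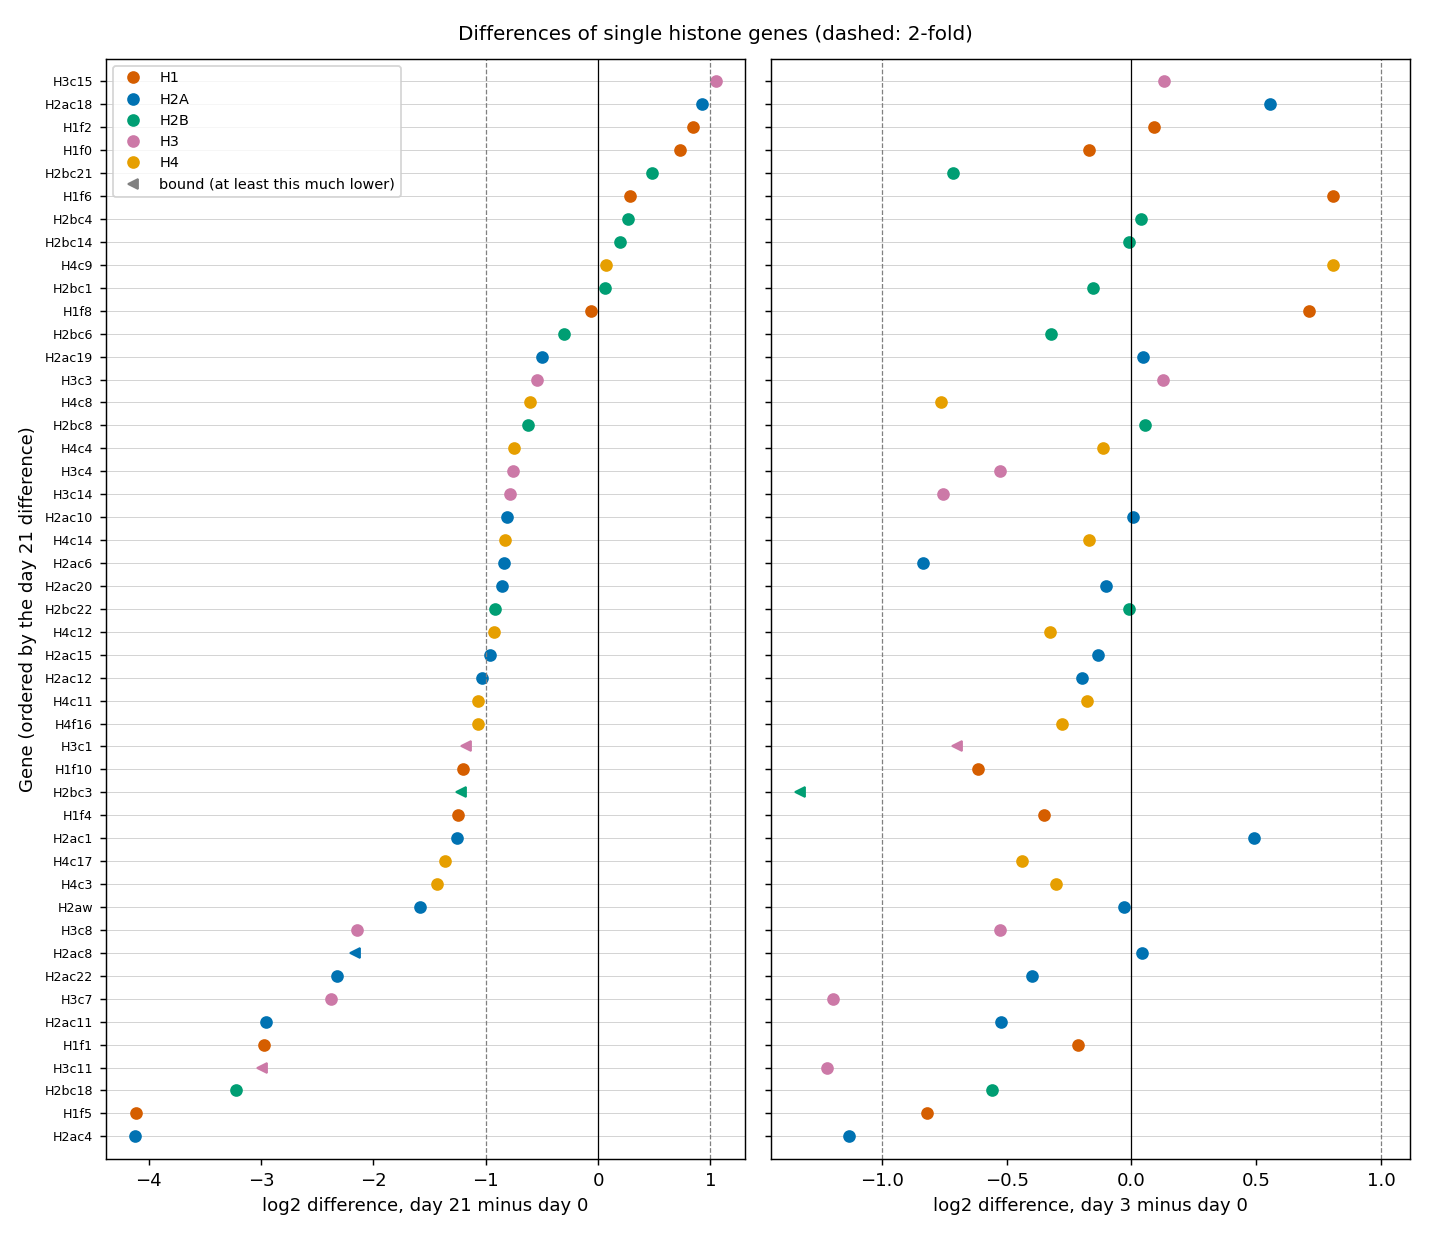
Log2 differences of the 47 histone genes above background on at least 1 array, in the day 21 against day 0 comparison (left, the order of the genes) and the day 3 against day 0 comparison (right); the horizontal axes differ in range, colours mark the histone class, dashed lines mark 2-fold, and triangles are bounds. On the left H2ac4 and H1f5 lie below -4 and H3c15 is the one gene beyond the right dashed line; on the right 3 measured genes lie beyond the left dashed line.

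The early comparison was smaller. Of 45 members measured at day 3 and day 0, 3 were at least 2-fold lower (H3c11, H3c7 and H2ac4; 6.67%), against 7.85% of 12455 named genes, and 0 were higher, against 7.73%. With bounds counted, H2bc3 was the 1 further member at least 2-fold lower, and 8.54% of all named genes were lower and 9.32% higher. Of the 3 measured calls, only H2ac4 stayed 2-fold lower under each of the 4 other scalings and background corrections tried. The members' median was -0.18 beside -0.08 for all named genes. On this array pair the share of members called lower lay near that of all named genes, and the share called higher lay below it. The day 3 array was on a slide and scan of its own, and day and slide cannot be told apart there.

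Between day 3 and day 21, 11 of 43 measured members were at least 2-fold lower (25.6%, against 7.11% of 12739 named genes) and 1, H2bc21, was higher (against 7.75%). Bounds added H2ac8 and H3c11 to the lower members and 0 to the higher ones, beside 8.24% and 8.99% of all named genes. The median was -0.73, and -0.10 for all named genes. Day and slide or scan cannot be told apart here either. These comparisons share arrays and are not independent of each other.

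**Figure D2:**
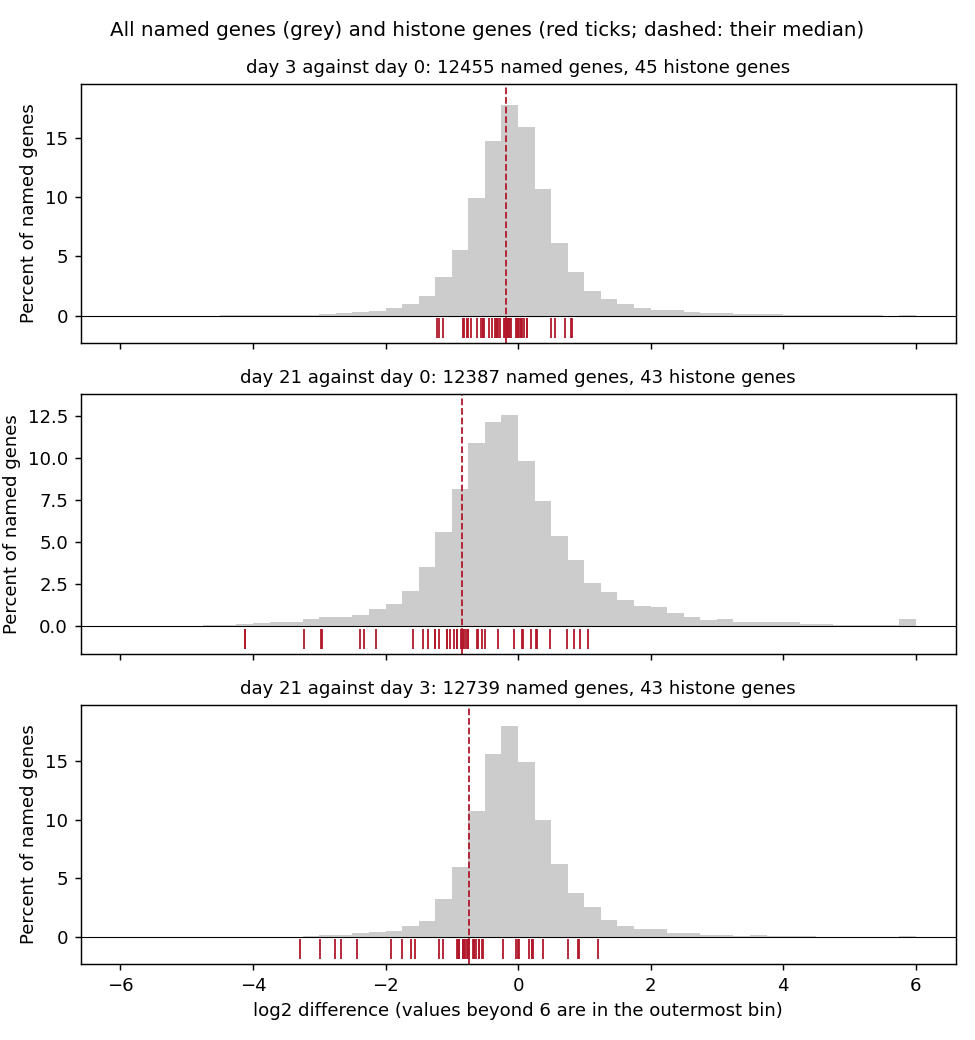
Distribution of log2 differences over all named genes (grey bars, percent per 0.25 log2 units) with each measured histone gene as a red tick and the histone median as a dashed line, for the 3 comparisons between days. The histone median sits at -0.18 in the day 3 against day 0 panel, where the ticks lie within the bulk of the bars, and at -0.84 and -0.73 in the panels with day 21, where the ticks spread far to the left.

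The class counts that follow for day 21 against day 0 stand against the same 16.8% of all named genes lower and 12.8% higher. The linker histones differed in both directions. H1f5 (older name Hist1h1b), an H1 subtype tied to proliferating cells, stood at 10.7 times the 75th percentile before induction, at 6.05 at day 3 and at 0.617 at day 21. It was thus high on the first array, lower on the day 3 array and lowest on the day 21 array: -0.82 at day 3 and -4.11 at day 21 against day 0, or 17.3-fold lower. H1f1, another replication-dependent subtype, was dimmer and nearly level over the first 3 days, with 0.527 and 0.454, and stood at 0.0672 at day 21, 7.84-fold lower than at day 0. With normexp correction the H1f1 difference was -1.20 in place of -2.97. H1f4, one of the most widely expressed subtypes, followed the same order with smaller steps, 9.64, 7.57 and 4.06, and a difference of -1.25 at day 21.

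H1f2, encoded in the same gene cluster and also counted as replication-dependent, went the other way. Its signal read 24.5, then 26.0 and then 43.9, so the first 2 arrays were alike and the day 21 array was higher, by 0.84 against day 0. That is under the 2-fold rule. Under the other scalings and background corrections the day 21 difference of H1f2 was between 0.60 and 1.11. H1f0, the linker histone that accumulates in resting and differentiated cells, was at 0.259, 0.230 and 0.431 on the day 0, day 3 and day 21 arrays, a day 21 difference of 0.73 at a signal below the 75th percentile. The H1f0 difference was between 0.32 and 0.90 under the other scalings and corrections. H1f10, the other subtype made outside S phase, did not share that direction: 0.556, 0.363 and 0.242, or -1.20 at day 21.

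Of the germline linker histones, H1f6, the testis form, was dim on all arrays (0.0985, 0.172 and 0.120) and H1f8, the oocyte form, likewise (0.216, 0.353 and 0.206). Both were highest on the day 3 array, by 0.81 and 0.71 against day 0, and under 2-fold in every comparison. Under the other scalings and corrections the day 3 differences were between 0.17 and 0.87 for H1f6 and between 0.07 and 0.77 for H1f8. No array had H1f7, the form of late spermatids, or H1f3, a replication-dependent subtype, well above background. Over the 8 measured H1 genes, 4 were at least 2-fold lower and 0 higher at day 21 than at day 0, with a median of -0.63; H1f10 was at -0.61 with normexp correction.

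**Figure D3:**
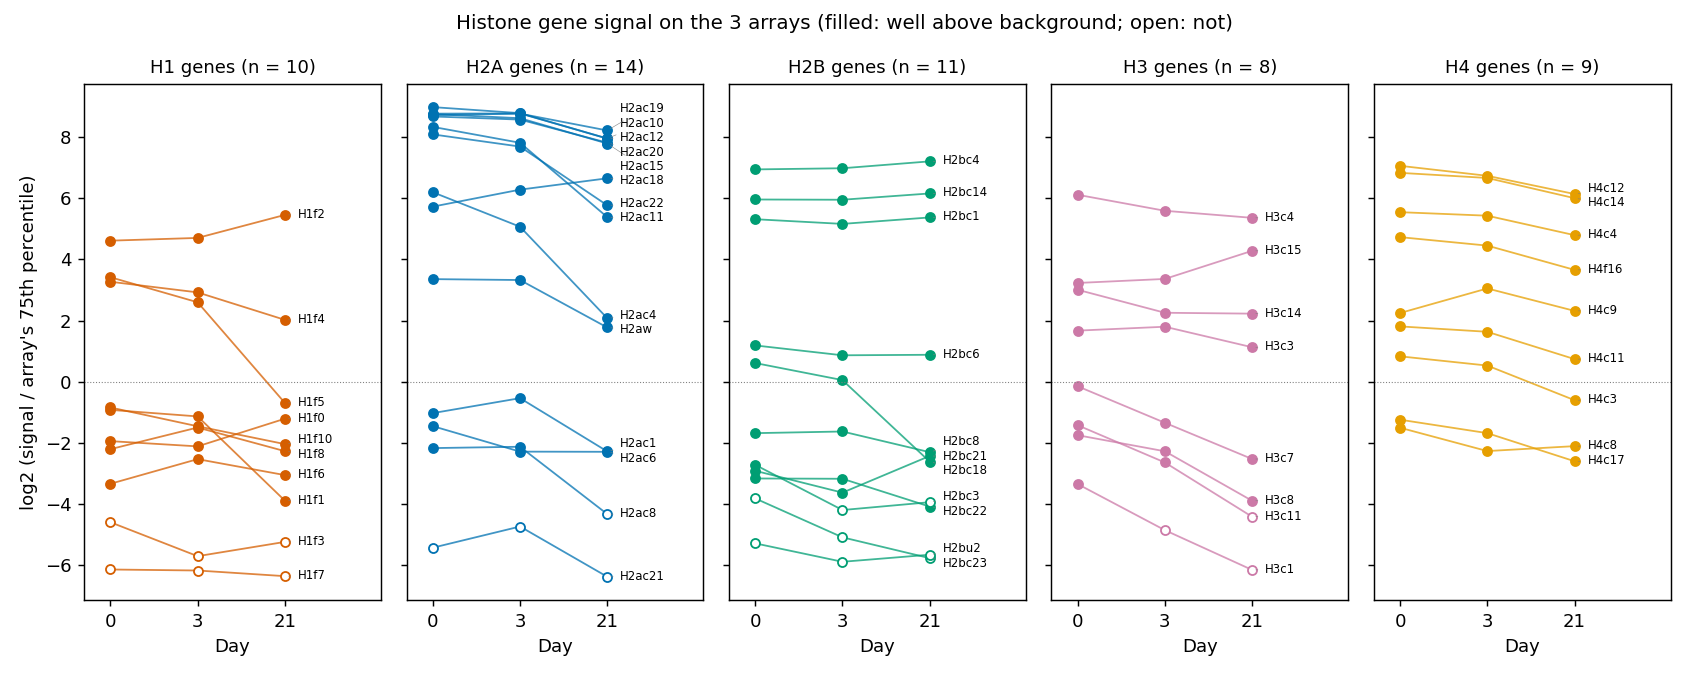
Log2 signal relative to the array's 75th percentile on the day 0, day 3 and day 21 arrays for each histone gene, by class; each line is the brightest probe of a gene, filled points are well above background and open points are not, and heights of different probes are not comparable. H1f5 and H2ac4 end furthest below their day 0 value, H1f2, H2ac18 and H3c15 end above their day 0 value, and H2bc4, H2bc14 and H2bc1 run almost flat.

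Among the H2A genes, 6 of 12 measured were at least 2-fold lower at day 21 than at day 0 and 0 were higher, with a median of -0.997. H2ac4 (Hist1h2ab) was, with H1f5, one of the members with the largest day 21 difference, with 73.5 times the 75th percentile at day 0, 33.6 at day 3 and 4.21 at day 21. Each later array was lower, by 2.19-fold at day 3 and by 17.4-fold at day 21 against day 0. H2ac11 (323, 225 and 41.7) and H2ac22 (273, 207 and 54.5) were 7.75-fold and 5.00-fold lower at day 21, and most of that lay between day 3 and day 21. H2aw, from a small separate cluster, was level between day 0 and day 3 (10.2 and 10.0) and at 3.41 at day 21, a difference of -1.58. H2ac8 was at 0.221 and 0.228 and then not well above background at day 21. Its bound there, 4.47-fold lower than at day 0, equals the plain ratio to a value near background.

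A second set of H2A probes was very bright and lay close together in both later comparisons with day 0. H2ac10, H2ac12, H2ac15, H2ac19 and H2ac20 had 410 to 506 times the 75th percentile at day 0, 382 to 442 at day 3 and 222 to 298 at day 21. Their day 21 differences lay between -1.03 for H2ac12 and -0.50 for H2ac19, and their day 3 differences between -0.20 and 0.05. H2A copies are nearly the same in sequence and the files give no probe sequences, so a probe may read several of them, and these 5 values may not be separate measurements. H2ac15 shows the limit: its brighter probe differed by -0.96 at day 21 and its other probe by -2.01. Quantile normalization, which sets the brightest spots of each array to one distribution, gave -0.20 for H2ac12 at day 21 in place of -1.03, and 0.02 for H2ac10 in place of -0.81. No non-control spot was saturated.

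H2ac18 and H2ac19 are near-identical neighbours in the second cluster, and at day 21 against day 0 their probes gave opposite directions (-0.50 for H2ac19), except that quantile normalization turned H2ac19 to 0.30. At day 3 both were above 0, H2ac19 by 0.05. H2ac18 was at 53.0, 77.9 and 101 on the 3 arrays, higher on each later day, with 0.56 at day 3 and 0.93 at day 21 against day 0. Its day 21 difference was between 0.68 and 1.45 under the other scalings and corrections, while its day 3 difference was -0.08 under spike-in scaling. H2ac6, a dim probe, was lower at both later days (0.364, 0.204 and 0.204). H2ac1, the testis H2A, was at 0.490, 0.687 and 0.205, or -1.25 at day 21, and H2ac21 was at background on each of them.

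Promoters of 47 of the 52 members were matched by symbol in the RefSeq promoter table (GRCm38.p6), and the 250 bases before each start site were searched on both strands. Upstream bases of a pair of linker genes and a pair of H2A genes are shown because the genes of each pair differed in opposite directions at day 21. Capitals mark the motifs searched: TATAAA is a TATA box, CCAAT a common promoter element, and ATTTGCAT the octamer of H2B promoters. The letters AAACACA are the H1 box, and the hexamer GGTCCG is found in site II of H4 promoters. Motifs on opposite strands may overlap, and a promoter counts once for each motif. H1f5, 17.3-fold lower at day 21 than at day 0, lies on the minus strand and its stretch is chr13:21780626-21780875. H1f2, higher by 0.84, lies on the plus strand with chr13:23738557-23738806. H2ac4, 17.4-fold lower, is on the plus strand with chr13:23750838-23751087, and H2ac18, higher by 0.93, on the plus strand with chr3:96245247-96245496.
H1f5: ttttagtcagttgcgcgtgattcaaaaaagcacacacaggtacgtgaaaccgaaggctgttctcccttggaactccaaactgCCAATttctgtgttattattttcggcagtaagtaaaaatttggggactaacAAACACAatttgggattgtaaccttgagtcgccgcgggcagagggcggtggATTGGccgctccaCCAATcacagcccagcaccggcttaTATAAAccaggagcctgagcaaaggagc
H1f2: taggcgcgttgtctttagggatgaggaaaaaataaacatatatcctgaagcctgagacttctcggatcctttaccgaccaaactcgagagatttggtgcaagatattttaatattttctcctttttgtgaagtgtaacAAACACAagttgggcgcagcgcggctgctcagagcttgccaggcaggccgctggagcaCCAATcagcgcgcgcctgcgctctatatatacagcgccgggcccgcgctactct
H2ac4: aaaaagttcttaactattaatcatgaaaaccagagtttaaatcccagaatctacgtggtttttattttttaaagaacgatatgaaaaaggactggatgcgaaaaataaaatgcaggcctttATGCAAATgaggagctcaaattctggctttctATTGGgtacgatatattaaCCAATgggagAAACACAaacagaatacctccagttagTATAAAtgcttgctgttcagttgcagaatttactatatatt
H2ac18: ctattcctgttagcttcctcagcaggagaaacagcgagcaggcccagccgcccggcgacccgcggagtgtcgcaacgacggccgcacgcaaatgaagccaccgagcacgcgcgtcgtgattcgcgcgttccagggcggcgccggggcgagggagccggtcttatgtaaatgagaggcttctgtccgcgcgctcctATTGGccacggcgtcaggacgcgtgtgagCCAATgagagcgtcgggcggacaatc
Both linker promoters hold 1 H1 box, H1f5 at base -117 and H1f2 at base -112 from the start site, and at least 1 CCAAT. The exact letters TATAAA were found in H1f5 and H2ac4 and not in H1f2 or H2ac18. Other forms of a TATA box were not searched, and H1f2 holds the letters tatatata before its start site. H2ac4 also holds an octamer on the minus strand and an H1 box at base -68. A match is a description of letters and not a binding site.

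Over the 47 promoters the motifs differed by class. The octamer was in 7 of 14 H2A and 6 of 9 H2B promoters and in 0 of the H1, H3 and H4 promoters, against 1.60% of all 32851 promoter windows. GGTCCG was in 7 of 8 H4, 1 of 10 H1, 1 of 6 H3 and 0 of the H2A and H2B promoters, against 6.72% of all windows. AAACACA was in 5 of 10 H1, 2 of 9 H2B, 2 of 14 H2A and 0 of the H3 and H4 promoters, against 6.25%. CCAAT was in all 14 H2A and all 9 H2B promoters, in 7 of 10 H1, 4 of 6 H3 and 2 of 8 H4 promoters, against 33.8% of all windows. TATAAA was in 7 of the 16 promoters whose genes were at least 2-fold lower at day 21 than at day 0 and in 9 of the 23 of the other measured genes, against 12.4% of all windows. In the same 16 and 23 promoters, GGTCCG was in 5 and 3, CCAAT in 12 and 17, the octamer in 5 and 6, and AAACACA in 4 and 4.

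The H2B class had the median nearest 0. Of 8 measured, 1 was at least 2-fold lower (12.5%, against 16.8% of all named genes) and 0 were higher at day 21 than at day 0, with a median of -0.12 that was 0.05 under quantile normalization and 0.05 with the percentile of detected spots. The 3 brightest probes were almost level: H2bc4 at 123, 127 and 148, H2bc14 at 62.3, 61.9 and 71.4, and H2bc1, known as the testis form, at 39.8, 35.8 and 41.4. They differed by 0.26, 0.20 and 0.06 at day 21, and spike-in scaling turned H2bc14 to -0.05 and H2bc1 to -0.19. H2bc18 was the exception, with 1.52, 1.04 and 0.163, lowest on the last array and 9.37-fold lower at day 21 than at day 0 (-3.23, and -1.81 with normexp correction).

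The other H2B probes were below the 75th percentile on every array, except H2bc6. H2bc21 was at 0.132 at day 0, 0.0806 at day 3 and 0.185 at day 21, lowest on the middle array, and it was the 1 member at least 2-fold higher between day 3 and day 21 (2.30-fold); with normexp background correction that difference was 0.32. H2bc3 was above background at day 0 only (0.151) and at least 2.51-fold lower at day 3. Its bound at day 21, 2.33-fold lower, equals the plain ratio to a value near background. H2bc6 (2.27, 1.82 and 1.84), H2bc8 (0.311, 0.323 and 0.202) and H2bc22 (0.111, 0.110 and 0.0587) stayed within 2-fold in every comparison. H2bc23 and H2bu2 were at background throughout.

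H2A and H2B genes often stand head to head and share the stretch between them. Among the members, 4 neighbouring pairs pointed away from each other in the RefSeq order. In H2ac22 and H2bc22 the day 21 differences against day 0 were -2.32 and -0.92. In the next pair H2ac8 was 4.47-fold lower by a bound and H2bc8 was at -0.62. For the germline pair H2ac1 and H2bc1 they were -1.25 and 0.06. The remaining pair was H2ac18 and H2ac19. In each of the 4 pairs the partners' differences were unlike in size.

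Among the H3 genes the copies diverged as well: 2 of 6 measured were at least 2-fold lower and 1 was higher at day 21 than at day 0, with a median of -0.77. H3c7 was at 0.900, 0.393 and 0.173, lower on each later array, by 2.29-fold at day 3 and 5.21-fold at day 21 against day 0. H3c8 followed with 0.297, 0.206 and 0.0670, or 4.43-fold lower at day 21. H3c11 was at 0.372 and 0.160 and then not well above background. Its bound at day 21, 7.98-fold lower than at day 0, equals the plain ratio to a value near background. H3c1 was above background at day 0 only and at least 2.27-fold lower at day 21. These 4 probes were all dim, and with normexp correction the day 21 difference of H3c8 was -0.69 in place of -2.15 and that of H3c7 -1.33 in place of -2.38.

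H3c15 (Hist2h3c2), from the second cluster, was the only member at least 2-fold higher at day 21 than at day 0. Its signal was 9.38, 10.3 and 19.4, so that the day 21 array stood apart from the first 2, with a difference of 1.05 (2.07-fold) that was between 0.81 and 1.26 under the other scalings and corrections. H3c14, its neighbour copy, was at 8.03, 4.77 and 4.67, lower at both later days by 0.75 and 0.78 on the log2 scale. H3c4 (69.3, 48.2 and 41.1) and H3c3 (3.18, 3.47 and 2.18) were under 2-fold in every comparison. H3c3, H3c4, H3c7, H3c14 and H3c15 are listed as synonyms of each other in the gene table, yet their day 21 differences ran from -2.38 to 1.05.

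H4 copies encode the same or nearly the same protein, and at day 21 against day 0 their differences spanned the narrowest range of any class. In that comparison, 4 of 9 were at least 2-fold lower than at day 0 and 0 were higher, with a median of -0.92 and a range from -1.43 to 0.07. H4c3 was the lowest, with 1.77 at day 0, 1.44 at day 3 and 0.657 at day 21 (2.70-fold lower). H4c17 followed with 0.422, 0.311 and 0.164, or 2.57-fold lower (-1.36, and -0.64 with normexp correction). H4c11 (3.50, 3.097 and 1.67) and H4f16 (26.5, 21.9 and 12.6), a copy outside the main cluster, were both 2.10-fold lower. H4c12, H4c14 and H4c4, with 134, 114 and 46.7 at day 0 and 70.5, 64.2 and 27.7 at day 21, differed by -0.92, -0.83 and -0.75, and H4c8, a dim probe, by -0.60.

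H4c9 did not follow. It was at 4.74, 8.28 and 4.98, highest on the middle array, with 0.80 at day 3 and 0.07 at day 21 against day 0. Its second probe gave 0.21 and -0.50. Under the other scalings and corrections the day 3 difference of the brighter H4c9 probe was between 0.17 and 0.87. H4c14 has a second probe too, which was not well above background at day 0 and day 3 and reached 0.223 at day 21, at least 3.76-fold higher than at day 0, against -0.83 for the brighter probe. In H4c12 the probes gave -0.92 and -0.81. Of the 52 members, 20 in 4 sets are cross-listed as synonyms in the gene table, the 9 H4 genes among them, and single values of such copies are uncertain.

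By cluster, 13 of 30 measured genes of the first cluster were at least 2-fold lower at day 21 than at day 0 (43.3%, median -0.92) and 1 of 8 of the second (12.5%, H2bc18; median -0.64), against 16.8% of all named genes. H2aw and H4f16, the measured genes of the clusters named Hist3 and Hist4, were at -1.58 and -1.07. H2ac18 and H3c15, with the largest positive differences, are both in the second cluster; this grouping was seen in the data.

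Genes of DNA replication, whose products act when histones are needed, were set beside the histones. Of 32 measured S phase genes, 26 were at least 2-fold lower at day 21 than at day 0 (81.2%, against 16.8% of all named genes) and 0 higher, with a median of -1.68, led by the chromatin factor Uhrf1 (-3.76), thymidine kinase Tk1 (-3.64), Mcm10 (-3.43) and Mcm5 (-3.04) of the replication machinery. All 15 measured G2 and M phase genes were at least 2-fold lower, with a median of -3.50, among them the survivin gene Birc5 (-3.81), the mitotic kinase Plk1 (-3.75) and the proliferation marker Mki67 (-3.74). At day 3, 8 of 33 S phase genes and 9 of 18 G2 and M phase genes were at least 2-fold lower, against 7.85% of all named genes, with medians of -0.66 and -1.02, beside -0.18 for the histone genes. The day 21 differences of H1f5 (-4.11) and H2ac4 (-4.12) were below those of all genes measured on both arrays in these lists; by a bound, the checkpoint kinase gene Bub1 was at least 30.3-fold lower.

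**Figure D4:**
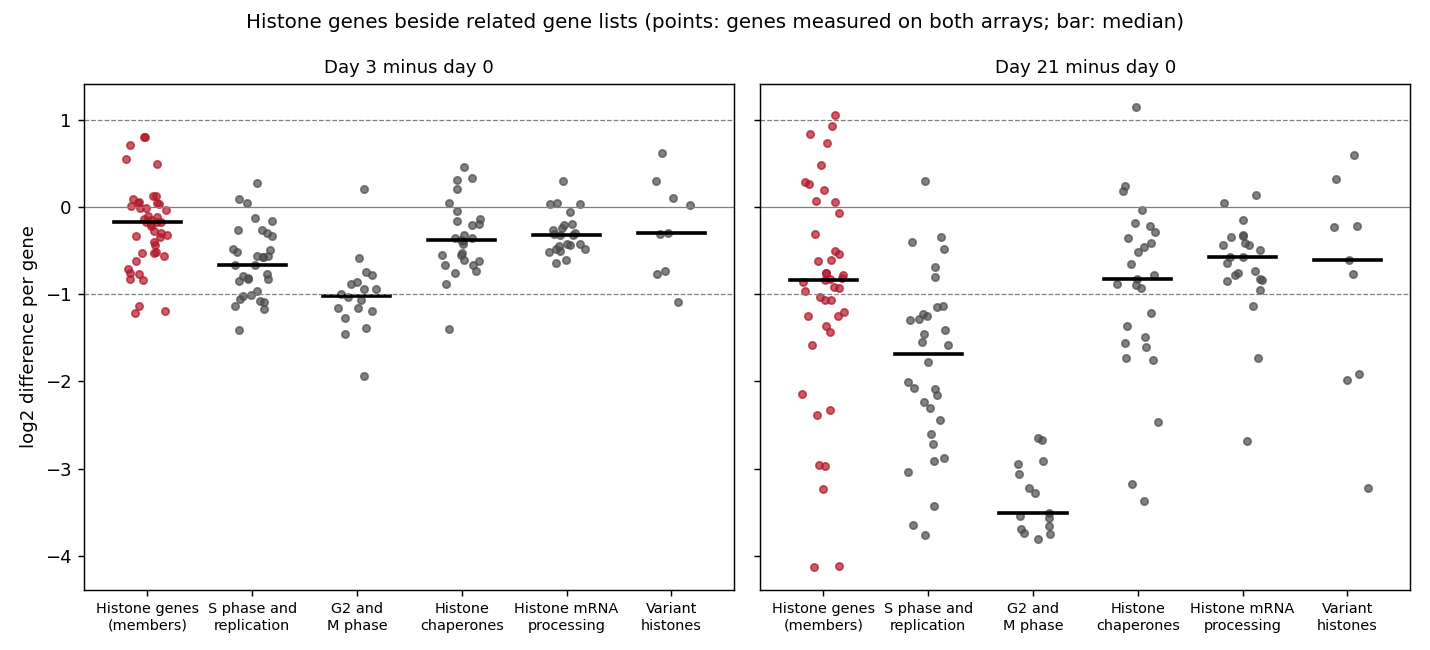
Log2 differences per gene for the histone members (red) and 5 lists of related genes (grey), day 3 minus day 0 on the left and day 21 minus day 0 on the right; points are genes measured on both arrays, spread sideways at random, bars are medians and dashed lines mark 2-fold. The histone median of -0.84 at day 21 lies near that of the histone chaperones at -0.82 and above those of the S phase genes at -1.68 and the G2 and M phase genes at -3.50.

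Histone chaperones, which carry histones to the DNA, differed among themselves. At day 21, 10 of 27 were at least 2-fold lower than at day 0 and 1 was higher, against 16.8% and 12.8% of all named genes. The S phase partners Asf1b (-3.37) and Chaf1b (-3.17), the nucleolar Npm3 (-2.47) and Npm1 (-1.75) were lowest, whereas Asf1a, the paralogue of Asf1b, was at 1.15, from a dim probe. Factors of histone gene transcription and mRNA processing were mostly within 2-fold: 3 of 23 were lower (13%, near the 16.8% of all named genes) and 0 higher, with a median of -0.58. The 3 were Lsm11 (-2.68), a part of the U7 particle that cuts the stem-loop end, Ybx1 (-1.73) and Hinfp (-1.13), which binds H4 promoters. The stem-loop binding protein Slbp was at -0.83 and Npat, the coactivator of the histone clusters, was at background throughout; Slbp, Npat and Asf1a are named for their role, with their values known.

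Variant histones, most of which are also made outside S phase, were measured for 9 genes. Of these, 3 were at least 2-fold lower at day 21 than at day 0 (33.3%, against 16.8% of all named genes). They were the centromeric Cenpa (-3.22), H2az1 (-1.99) and H2ax (-1.91). At least 2-fold higher were 0, against 12.8% of all named genes. H3f3a and H3f3b, which both encode H3.3, were at 0.32 and -0.23. H2az2, the other H2A.Z gene, was at 0.60, with 0.61 at day 3 against day 0. Spike-in scaling shifted the median of all named genes at day 3 by -0.64, about that size in the other direction. H3f3a, H3f3b and H2az2 were named with their values known.

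The labelled cell types were checked against markers. All 10 marrow stromal markers were above background on each array, with summed signals of 420, 725 and 940. Single stromal markers went both ways, from -2.62 to 5.12 at day 21 against day 0. At least 2-fold higher were 3 (30%, against 12.8% of all named genes) and lower 1 (10%, against 16.8%). Of 8 osteoblast markers 4, 6 and 7 were above background at day 0, 3 and 21, and their summed signal was 362, 389 and 293. Brighter probes weigh more in such a sum. Of the 4 measured at day 21 and day 0, 2 were at least 2-fold higher and 0 lower, against 12.8% and 16.8% of all named genes. By a bound 3 more were higher, beside 15.4% of all named genes counted that way. At day 21 against day 0 Bglap2 (3.58) and Spp1 (2.74) were higher, while Runx2 was at -0.37 and Col1a1 at -0.47. Of the same list, Sp7 was not well above background on any array, while Alpl and Ibsp were above it at day 3 and day 21 only. Adipocyte markers differed between the days. Of these, 5 of 8 were above background at day 0 and 8 of 8 at day 3 and day 21. At day 3, 3 of the 5 measured at both day 0 and day 3 were at least 2-fold higher, against 7.73% of all named genes. All 5 measured at both day 0 and day 21 were at least 2-fold higher at day 21, against 12.8% of all named genes. The summed signal of the adipocyte markers was 8.24, 39.6 and 1102. For blood and macrophage markers 4 of 9 were above background on every array, Ptprc on none, with sums of 66.0, 61.5 and 89.5, and for endothelial markers the sums were 21.0, 28.3 and 16.9 with Cdh5 on none. The part of such cells in the histone values was not tested.

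The scaling affected these differences. With the RNA spike-in probes as reference, the median of all named genes shifted by -0.64 at day 3 and -0.25 at day 21 against day 0, and by 0.39 between day 3 and day 21. The percentile of detected spots shifted it by 0.17 at day 21 against day 0 and by 0.11 against day 3, and quantile normalization by 0.11 against day 0. Of the 33 members below 0 at day 21 against day 0, 30 were below 0 under all 4 other scalings and corrections, and 6 of the 10 above 0 stayed above it (H1f0, H1f2, H2ac18, H2bc4, H2bc21 and H3c15). Of the 17 called lower, 10 were at least 2-fold lower in all of them: H1f1, H1f4, H1f5, H2ac4, H2ac11, H2ac22, H2aw, H2bc18, H3c7 and H4c3. The other 7 (H1f10, H2ac1, H2ac12, H3c8, H4c11, H4c17 and H4f16) were under 2-fold in at least 1 of them, and H3c15 was under 2-fold with spike-ins. For H1f10, H2ac1, H3c8 and H4c17, all below the 75th percentile, this was so only with normexp, which adds an offset of 50 to each signal. At day 3, 3 of the 13 members above 0 stayed above it (H1f6, H1f8 and H4c9).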

How the data were processed

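Per the file headers, the authors' scanner files came from Agilent Feature Extraction 10.10.1.1 (12.0 in the submitters' processing notes) and hold linear intensity, background-subtracted and detrended within each array. The deposited value table held the same intensity (largest relative difference 0). From these, log2 was taken and each array's 75th percentile over non-control spots (172.2, 174.6 and 190.7 at day 0, 3 and 21) subtracted; outlier spots were left out. Deposited flags (other values, 0 or 1) marked spots well above background. Accessions without versions were matched to the RefSeq gene table (GRCm38.p6, names only; the array design is annotated on another build), naming 26762 of 55681 probes. The brightest probe by its 3-array mean represented a gene. For a bound, the dim array's side was its lowest value marked above background, or the probe's value there if higher. For H2ac8, H2bc3 and H3c11 at day 21 the probe's value was the higher. Those bounds equal the plain ratios and are not strict lower limits. Calls were tested on simulated data. Members and lists were chosen with earlier results of these data known. Every member gene above background on at least 1 array is named; other lists give up to 4 members with the largest differences, beside a few chosen with their values known, as the text says. Alternatives were other scalings, normexp, no filter, other probe and fold rules and the value table. Normexp was run in limma 3.58.1 with an offset of 50, on median signals, because the files hold no mean signal. Python 3.11.15 and R 4.3.3 were used. The number of arrays limits the precision.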

Additional observations from a re-analysis of the deposited data

How the results depend on the processing

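The cause of each shift below was not tested, except that fold rules change the threshold, no filter adds dim genes and counting copies once leaves fewer genes. By construction, normexp also adds an offset of 50 to each signal, which narrows the ratios between dim signals. Shares of all named genes called under these settings are not given here, so the counts below describe the members alone. For day 3 against day 0, 3 members were called lower and 0 higher. Spike-in scaling gave a median of -0.81 and 15 lower, where the median of all named genes was -0.72. Normexp gave 1 lower, no filter on dim probes 7 lower, a 1.5-fold rule 9 lower and 3 higher, and cross-listed copies counted once 1 lower. For day 21 against day 0 (17 lower, 1 higher), the median was -0.67 with the percentile of detected spots, -0.49 with quantile normalization and -1.08 with spike-ins. In the same order, the median of all named genes was -0.04, -0.11 and -0.46. Higher calls among the members were 3, 3 and 0 in these settings, 4 with a 1.5-fold rule and 0 with copies counted once. Lower calls were 10 with normexp and 29 with a 1.5-fold rule. For day 21 against day 3 (11 lower, 1 higher), the median was -0.54 with quantile normalization, -0.34 with spike-ins and -0.54 with normexp. In the same order, the median of all named genes was -0.01, 0.29 and -0.07. Higher calls were 3 with detected spots, 2 with quantile normalization, 4 with spike-ins, 0 with normexp and 4 with a 1.5-fold rule; lower calls were 7 with normexp and 27 with a 1.5-fold rule. No member called in a comparison changed sign there under the 4 scalings and corrections. Leaving out a replicate is not possible with 1 array per group. Normexp on median signals, copies counted once, and germline genes with H1f0 and H1f10 left out were chosen after seeing the data; the planned normexp on mean signals was not run, and median signals took its place. No paired analysis was possible because each group is 1 array. Values below the 75th percentile, nearer the background, are the less certain ones.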
